A study of Sus scrofa with 2 samples.

Results

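Described here are 5 compact stretches of the pig genome that gave many RNA reads in a culture of embryonic germ cells and few in a culture of fetal fibroblasts. They lie on chromosomes 14, 17, 13, 4 and 9, each is under 30 kb long, and they were chosen by coordinates from 75535 regions covered by reads. The choice was made because these stretches were abundant and higher in the germ cells, so their levels and ratios are a description and were not tested. Outside an abundant block of chromosome 6, the 5 loci together took 1.87% of the reads of the germ cell library (237345) and 0.124% of those of the fibroblast library (12299).

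The study sequenced poly(A) RNA of 2 primary cultures from embryos of Danish Landrace sows mated with Yorkshire boars, collected between days 17 and 24 of pregnancy. The series title speaks of mini pigs. Embryonic germ cells (pEGC) were grown as colonies from hindguts and from the parts of the mesonephros where the genital ridges form, on mitomycin C-inactivated STO feeder cells, a mouse fibroblast line. The medium held the growth factors LIF and SCF, both at 10 ng/ml, with 3 ng/ml of bFGF, and each dish was seeded from 1 embryo. Fetal fibroblasts (pFF) are connective tissue cells, and their culture is not described separately in the labels. Each group has 1 library and there are no replicates, so every comparison is between 2 libraries, and every interval covers counting error only. The labels give the same cross for both groups and no specific treatment, and the number of embryos behind a library is not given in the sources used here. Reads of mouse feeder RNA that align to the pig genome could not be told apart from pig reads. In bulk RNA, fewer cells of a type and less RNA per cell cannot be told apart.

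Primordial germ cells are the embryonic precursors of eggs and sperm. They migrate through the hindgut to the genital ridges, and colonies grown from them can keep the ability to form many cell types. In poly(A) RNA sequencing, most reads come from exons, the parts of a gene kept in the mature messenger RNA, while introns are removed and leave few reads. A spliced gene therefore appears as short blocks of reads separated by stretches with few, and the exon with the poly(A) end is often the longest. Reads aligned without gaps cannot cross an exon junction, so coverage falls steeply at exon ends. The files list positions only and name no gene, and the assembly of their coordinates is not given in the sources used here. No gene is therefore named for any of the 5 loci, the known germ cell and fibroblast markers were not analysed here, and the word exon-like describes an arrangement of reads.

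Both libraries held 14324517 reads of 34 bases. Outside positions 245000 to 260000 of chromosome 6, where reads pile up in both libraries, 12682180 pEGC reads and 9942279 pFF reads were left. Levels are given as RPM, reads in each 1000000 of these. Distinct positions, with each start and strand counted once, numbered 6292802 in pEGC and 3823858 in pFF. Positions of blocks are given with the first base counted as 1, as the BED format is usually read, and locus limits as applied to the start column of the files. Shifting a lower limit by 1 base would add 1 or 2 reads to a locus.

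All 5 loci had a higher level in pEGC, by 10.6-fold to 63.3-fold. The chromosome 14 locus, chr14:11444155-11469939, had 132991 reads or 10486 RPM in pEGC and 8421 reads or 847 RPM in pFF, a ratio of 12.4 (exact 95% interval 12.1 to 12.7). The chromosome 17 locus, chr17:57338860-57361700, had 31809 reads or 2508 RPM in pEGC and 394 reads or 39.6 RPM in pFF, a ratio of 63.3 (57.3 to 70.1). The chromosome 13 locus, chr13:135942423-135961041, had 25602 reads or 2019 RPM and also 394 reads or 39.6 RPM, a ratio of 50.9 (46.1 to 56.4). These 2 loci shared the lowest pFF level and the largest ratios. The chromosome 4 locus, chr4:85269004-85293942, had 20794 reads or 1640 RPM in pEGC and 1148 reads or 115 RPM in pFF, a ratio of 14.2 (13.4 to 15.1). The chromosome 9 locus, chr9:123222777-123237454, had 26149 reads or 2062 RPM in pEGC and 1942 reads or 195 RPM in pFF, a ratio of 10.6 (10.1 to 11.1). No locus was at 0 in pFF, and the lowest counts there, 394 reads, are far above the floor of 3 reads.

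**Figure D1:**
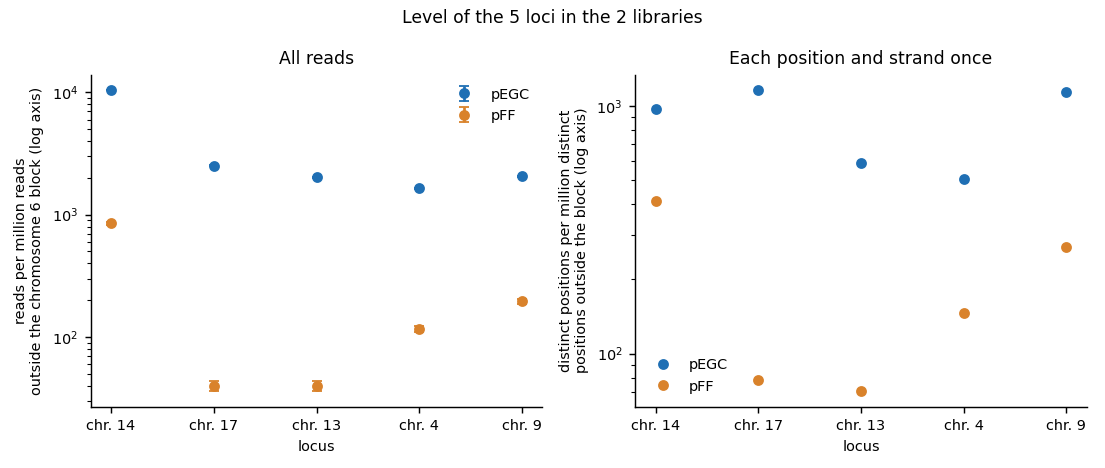
Level of each locus (horizontal axis) in pEGC (blue) and pFF (orange), as RPM over the reads outside the chromosome 6 block (left, log axis, bars are exact 95% counting intervals) and as distinct positions scaled in the same way to the distinct positions of the library (right, log axis). The pEGC point lies above the pFF point at every locus on both scales, and the gap is narrower on the right, for example 12.4-fold against 2.35-fold at chromosome 14.

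Ordered by pEGC level, chromosome 14 came first by a wide margin, followed by chromosomes 17, 9, 13 and 4. The counting intervals of chromosome 9 (2037 to 2087 RPM) and chromosome 13 (1994 to 2044 RPM) overlapped, so their order is not resolved, and the other neighbours did not overlap. In pFF the order was 14, 9 and 4, with chromosomes 13 and 17 equal at the end. Among 61818 windows of 25 kb with reads, 1 window held more pEGC reads than the whole chromosome 14 locus, and 13 held more than the chromosome 4 locus, the least abundant of the 5. The windows include those that overlap the 5 loci, and some of the 13 are such windows. The number of windows with more pFF reads was 96 for chromosome 14, 764 for chromosome 9, 1544 for chromosome 4, and 4671 each for chromosomes 13 and 17. All 5 loci were at least 4-fold higher in pEGC, with an interval beyond 2-fold. The same rule held for 15.5% of the regions covered by reads and for 17.8% of windows of 25 kb in which a library had at least 50 reads. The loci were picked for this ratio, so nothing is read from the count.

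Counted by distinct position and strand, the ratios were smaller. The chromosome 14 locus had 6115 distinct positions in pEGC and 1580 in pFF, which after scaling is a ratio of 2.35 (2.22 to 2.49). The ratio was 14.9 (13.3 to 16.8) at chromosome 17, from 7307 and 298 positions, and 8.34 (7.36 to 9.47) at chromosome 13, from 3690 and 269. It was 3.49 (3.19 to 3.83) at chromosome 4, from 3192 and 555 positions, and 4.23 (3.96 to 4.52) at chromosome 9, from 7146 and 1027. By this count the loci on chromosomes 17, 13 and 9 stayed at least 4-fold higher and those on chromosomes 14 and 4 did not. Of windows of 25 kb with enough distinct positions, 13.8% were at least 4-fold higher in pEGC. Each base offers 1 start per strand, so distinct positions have a ceiling in short deep stretches. In a chromosome 14 segment of 146 bases, pEGC filled 232 of 292 possible positions and pFF filled 155.

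Repeated positions differed strongly between the loci. Each distinct position was read 21.7 times on average at chromosome 14 in pEGC, 6.94 times at chromosome 13, 6.51 at chromosome 4, 4.35 at chromosome 17 and 3.66 at chromosome 9. A single position on strand R at 11466533 of chromosome 14 took 13287 pEGC reads, 9.99% of that locus, and the same position took 573 pFF reads, 6.80%. The position with the most reads was the same in both libraries at chromosomes 14, 13, 4 and 9, and differed at chromosome 17, where the leading pFF position held 6 reads. The leading position took 1.47% to 4.18% of the pEGC reads at the other 4 loci. Among 67 other windows of 25 kb with at least 10000 pEGC reads, this share had a median of 1.93% and a highest value of 15.6%. At chromosome 14, 72 positions held 50% of the pEGC reads, against 737 at chromosome 9.

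The share of distinct positions was also compared at equal numbers of reads. With the pEGC reads of a locus thinned in expectation to the number of pFF reads, the chromosome 13 locus had 70.5 distinct positions per 100 reads in pEGC and 68.3 in pFF, at 394 reads. The values were 82.0 and 75.6 at chromosome 17, also at 394 reads, and 20.9 and 18.8 at chromosome 14, at 8421 reads. At chromosome 4, with 1148 reads, they were 55.4 and 48.3. The widest gap was found at chromosome 9, with 70.1 in pEGC and 52.9 in pFF at 1942 reads. In all 5 loci the pEGC value was the higher. Over all reads outside the chromosome 6 block, without thinning, the distinct share was 49.6% in pEGC and 38.5% in pFF, in the same direction.

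**Figure D2:**
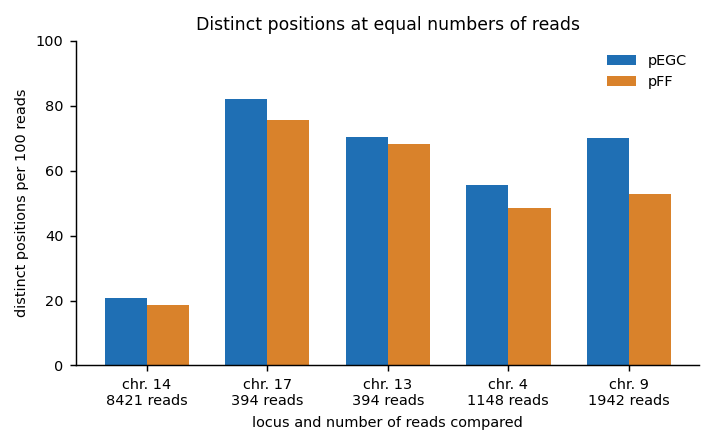
Distinct positions per 100 reads (vertical axis) at each locus (horizontal axis) when pEGC (blue) is brought to the number of pFF reads (orange), which stands under each locus. The bars are nearly level at chromosome 13 (70.5 and 68.3) and furthest apart at chromosome 9 (70.1 and 52.9).

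The arrangement of reads was then described within each locus, on 2 scales. A block is a run of bases with pEGC coverage of at least 10% of the mean of its locus. A deep segment is a run with at least the mean coverage, joined over gaps of up to 50 bases. The deep segments were defined after the blocks had been seen, because blocks at 10% also take in weak coverage between the peaks. There were 44 blocks and 10 deep segments at chromosome 14, 79 and 29 at chromosome 17, 18 and 14 at chromosome 13, 108 and 7 at chromosome 4, and 19 and 37 at chromosome 9.

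The chromosome 14 locus was exon-like in form. Its first 10.8 kb held no block, with 894 pEGC reads and 50 pFF reads spread over them. Its 10 deep segments, 88 to 405 bases wide, lay between 11454965 and 11466582. They covered 1752 bases, 6.79% of the locus, and held all but 5.51% of the pEGC reads and all but 6.26% of the pFF reads. Coverage outside the edges of the segments, 21 to 40 bases away, had a median of 1.09% of the coverage in the 20 bases inside, and 17 of 20 edges were under 10%. Distances between neighbouring segments ran from 56 to 2876 bases. The first 2 segments, at 11454965 and 11455109, were the thinnest, with 7330 and 7102 pEGC reads per kb. The widest, from 11460303 to 11460707, had 47840 pEGC reads per kb. The density was 103092 in the segment from 11461728 to 11461890, and it was highest at the upper end, with 224849 from 11464767 to 11464912 and 246241 from 11466450 to 11466582. These last 2 segments, 279 bases together, held 49.3% of the reads of the locus in pEGC and 49.4% in pFF. In the very last segment, 4.46% of the pEGC reads were on strand F, and 40.6% came from the position at 11466533. By blocks, the first and widest, from 11454951 to 11455611, had 11936 and 761 reads, and the last, from 11469860 to 11469895, had 64 and 1.

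The chromosome 4 locus had narrow, separate segments too, with a long one at its lower end. From 85269300 to 85270726, 1427 bases held 15151 pEGC reads, 72.9% of the locus, and 830 pFF reads, 72.3%. The other 6 deep segments were 53 to 212 bases wide and lay at 85272116, 85274731, 85276455, 85289997, 85293378 and 85293888, with 168 to 1368 pEGC reads and 5 to 76 pFF reads each. The gap of 13330 bases between the segments at 85276455 and 85289997 was the longest between deep segments of any of the 5 loci. Coverage outside the edges had a median of 5.53% of that inside, and 10 of 13 edges were under 10%. The long segment was also the densest, with 10617 pEGC reads per kb against 2298 to 7702 in the other 6. Its block, from 85269207 to 85270743, was the first, the widest and the densest of the locus, and the last block, from 85293837 to 85293942, had 178 pEGC and 5 pFF reads.

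The chromosome 13 locus was compact at its upper end. A weak group of 4 blocks lay near its lower limit, beginning at 135944467, with 10 to 131 pEGC reads each and 1 pFF read in all, and was followed by 9585 bases without a block. From there, 14 deep segments covered 3386 bases between 135954687 and 135960711. The widest, from 135958368 to 135960063, was 1696 bases long and held 16823 pEGC reads, 65.7% of the locus, and 205 pFF reads, 52.0%. It was followed by 2 segments with 2247 and 844 pEGC reads and preceded by 11 segments of 34 to 171 bases, with 82 to 1015 pEGC reads each. Edges were less steep than at chromosomes 14 and 4, with a median of 16.5% outside, and 10 of 28 were under 10%.

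The chromosome 17 locus was covered almost throughout. Its blocks filled 78.4% of its bases, and the longest run of blocks with gaps of up to 200 bases reached over 7.85 kb. Against this, 29 deep segments rose above the mean and held all but 21.0% of the pEGC reads. The first, from 57338895 to 57339631, was the densest, with 9370 pEGC reads, 29.5% of the locus, and 72 pFF reads, 18.3%. By number of reads the segment from 57340188 to 57340771 followed, with 3896 and 44. By density the next was near the upper end, from 57356011 to 57356104, with 12532 pEGC reads per kb against 12714 in the first. Most of the remaining segments were short, down to 34 bases, and 3 of them had 0 pFF reads. One of these, from 57346903 to 57346941, had 331 pEGC reads, and 43.8% of them were 1 position. With its pFF count set to the floor of 3 reads, its ratio was 86.5 (29.3 to 422). The widest block, from 57354898 to 57355980, had 754 and 15 reads, and the last, from 57361633 to 57361676, had 23 and 0. Of 57 edges, 28 had coverage outside under 10% of that inside, with a median of 10.9%.

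The chromosome 9 locus was a nearly unbroken stretch. From 123224139 to 123237450, 17 blocks covered 95.0% of 13.3 kb, and the widest gap was 191 bases. Within this stretch the first 2270 bases, from 123224139 to 123226408, were denser than the rest, with 3985 pEGC reads per kb and 399 pFF reads per kb. The next block, from 123226600 to 123228993, had 1863 and 120. It nevertheless held the densest deep segment of the locus, from 123226712 to 123226933, with 8270 pEGC reads per kb. The 37 deep segments of the locus were peaks on a continuous coverage: the median coverage outside an edge was 26.4% of that inside, and 8 of 74 edges were under 10%. The first block of the locus, from 123223220 to 123223253, had 13 pEGC reads and no pFF read, and the last, from 123237403 to 123237450, had 44 and 7.

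**Figure D3:**
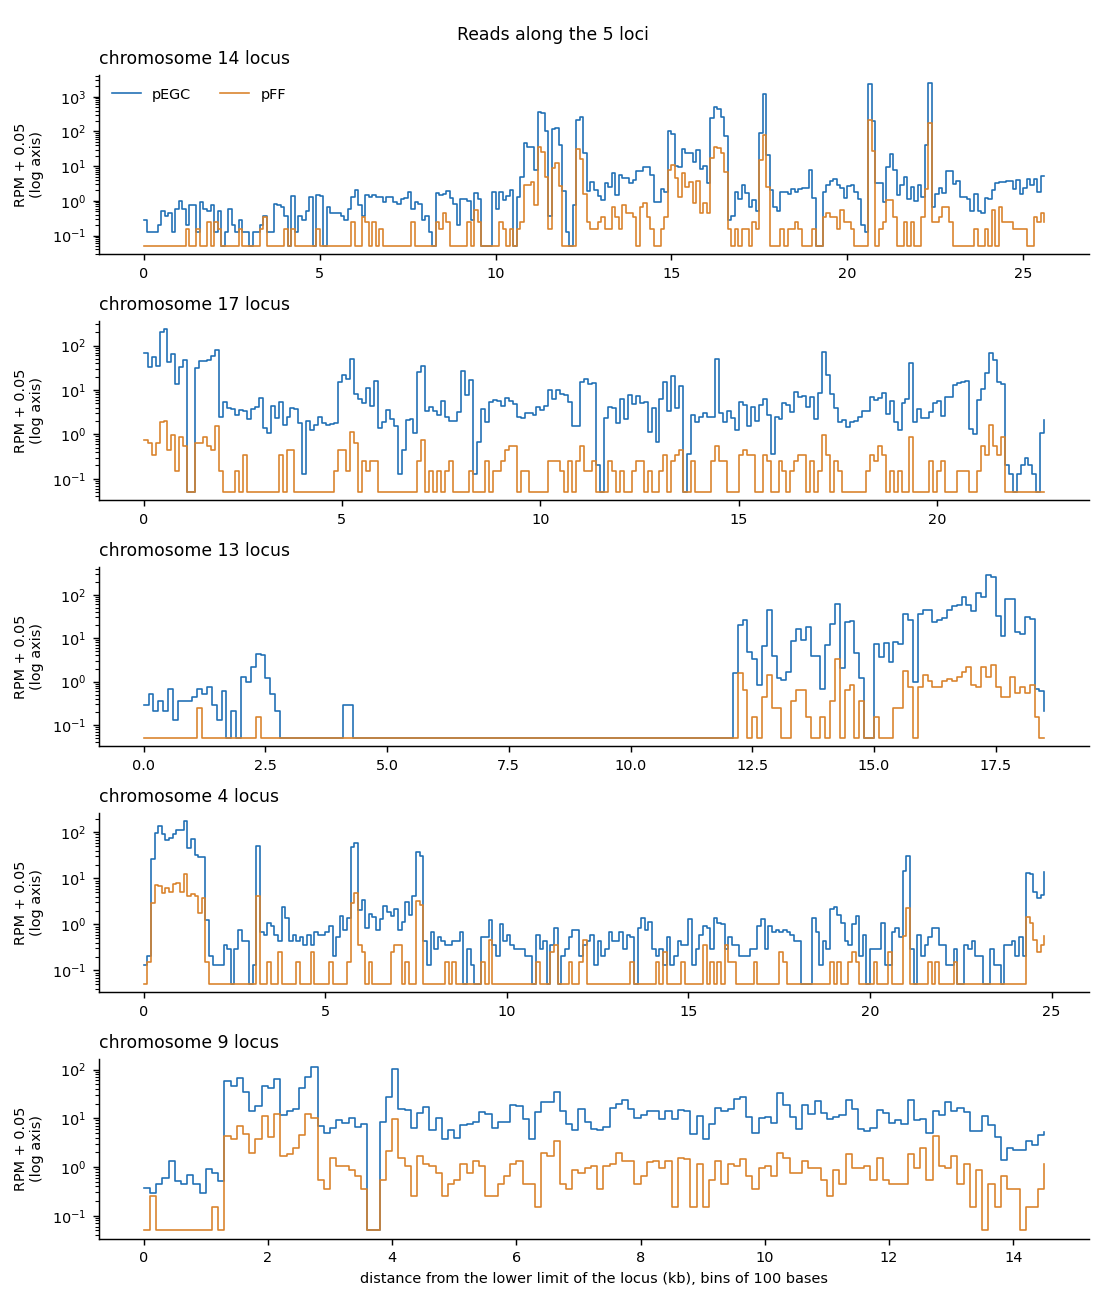
Reads in bins of 100 bases along each locus, as RPM with 0.05 added (vertical, log axis), against the distance from the lower limit of the locus in kb (horizontal), for pEGC (blue) and pFF (orange). Chromosomes 14 and 4 show narrow peaks over a low line, chromosome 13 a group at its upper end after an empty stretch, chromosome 17 peaks over a raised line, and chromosome 9 coverage over 13.3 kb with a denser start.

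The number of bins of 100 bases that held 90% of the pEGC reads sums up these forms. It was 16 at chromosome 14, 23 at chromosome 4, 30 at chromosome 13, 93 at chromosome 9 and 106 at chromosome 17. In the 67 other windows with at least 10000 pEGC reads the median was 24 bins, the quartiles were 13 and 46.5, and the highest had 136. The loci on chromosomes 14, 4 and 13 lay between these quartiles, and those on chromosomes 9 and 17 lay above the upper one. The loci differ in length, so the bins were also taken as a share of all bins. The share was 6.23% at chromosome 14, 9.24% at chromosome 4, 16.1% at chromosome 13, 63.7% at chromosome 9 and 46.5% at chromosome 17. In the windows the quartiles were 5.2% and 18.6% and the highest share was 54.4%, below that of chromosome 9. Windows have fixed borders and the loci do not, so the numbers are given as a description.

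Reads between the deep segments show how much of each locus was covered outside its peaks. Per kb, pEGC had 537 such reads at chromosome 14, 378 at chromosome 17, 241 at chromosome 13, 73.2 at chromosome 4 and 675 at chromosome 9. The density within the segments was 134 times as high at chromosome 14 and 116 times at chromosome 4. It was 30.2 times as high at chromosome 13, 16.0 times at chromosome 17 and 6.04 times at chromosome 9. The same quotients in pFF were 105, 131, 20.9, 8.97 and 6.61, for chromosomes 14, 4, 13, 17 and 9. By this measure the quotient was higher at chromosomes 14 and 4 than at the other 3 loci in both libraries. With the blocks at 10% the order was another. In pEGC the density within blocks was then 167 times that between them at chromosome 14, 132 at chromosome 4, 1092 at chromosome 13, 130 at chromosome 17 and 57.9 at chromosome 9. In pFF the quotients over blocks were 175, 75.8, 239, 108 and 19.3 in the same order of loci. Over blocks, chromosome 13 was highest and chromosome 9 lowest in both libraries. The 10566 bases between blocks at chromosome 13 held 43 pEGC reads and include the stretch of 9585 bases without a block. That stretch lies below the first deep segment, so it does not enter the quotient over deep segments.

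As a share of the reads of the locus, those outside deep segments had overlapping intervals in the libraries at chromosome 4, with 8.06% in pEGC (7.70 to 8.44) and 7.67% in pFF (6.19 to 9.36). The intervals also overlapped at chromosome 13, with 3.68% (3.46 to 3.92) and 4.57% (2.73 to 7.12), and at chromosome 9, with 20.4% (20.0 to 20.9) and 19.0% (17.3 to 20.8). At chromosome 17 the share was 21.0% in pEGC (20.5 to 21.4) and 32.0% in pFF (27.4 to 36.8), a gap larger than counting error. At chromosome 14 it was 5.51% (5.39 to 5.63) and 6.26% (5.75 to 6.80), also apart. The segments were drawn from pEGC coverage, so a higher share outside them in pFF is in part built in. Outside the blocks at 10% these calls changed. The shares at chromosome 17 were then 0.211% in pEGC (0.163 to 0.267) and 0.254% in pFF (0.00643 to 1.41), and at chromosome 14 they were 1.83% (1.76 to 1.90) and 1.71% (1.44 to 2.01), with no gap beyond counting error. At chromosome 9 they were 0.279% (0.219 to 0.351) and 0.721% (0.395 to 1.21), with intervals apart. The values were 0.519% (0.435 to 0.615) and 1.27% (0.413 to 2.94) at chromosome 13, and 1.32% (1.17 to 1.49) and 2.26% (1.48 to 3.30) at chromosome 4, with overlapping intervals.

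Coverage between segments was far denser than beside the loci. In the flanks on both sides, each as long as the locus, pEGC had 2.99 reads per kb at chromosome 14, 4.38 at chromosome 17, 0.510 at chromosome 13, 1.38 at chromosome 4 and 0.852 at chromosome 9. The density between segments was 52.9 to 792 times that of the flanks. Between the blocks at 10% the excess was smaller. The pEGC density there was 51.9 times that of the flanks at chromosome 14 and 3.12 times at chromosome 17. It was 7.98 times at chromosome 13, 12.6 at chromosome 4 and 41.6 at chromosome 9. In pFF the flanks held 40 reads at chromosome 14, 3 at chromosome 9, 2 each at chromosomes 17 and 4, and 0 at chromosome 13. Other covered regions lay at some distance. The nearest region with at least 200 pooled reads lay 31.9 kb from the chromosome 14 locus and 29.6 kb from the chromosome 17 locus. The distance was 37.8 kb at chromosome 13, 85.7 kb at chromosome 9 and 644 kb at chromosome 4. Those 5 nearest regions had 103 to 399 pEGC reads and pEGC over pFF ratios from 0.585 to 1.49, all below the ratio of the locus beside them.

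Reads were unevenly spread from one end to the other. The strand of transcription is not known from these libraries, so ends are given by coordinate. Blocks, or deep segments, were joined end to end and cut into 5 equal parts, and the reads in the highest part were divided by those in the lowest. At chromosome 14 the quotient over blocks was 1.62 (1.59 to 1.65) in pEGC and 1.27 (1.18 to 1.36) in pFF, with intervals apart. Over deep segments the highest part held 57.0% of the pEGC reads in the segments and the lowest 6.46%, a quotient of 8.81 (8.61 to 9.02), and in pFF these shares were 55.8% and 6.48%, a quotient of 8.62 (7.86 to 9.46). Over blocks the lean of chromosome 14 turned to the lower end when each position was counted once, with 0.479 in pEGC and 0.319 in pFF, and with 10 equal parts, with 0.0695 and 0.0357. No single direction can therefore be given for this locus. At chromosome 4 the lower end held more reads by each count given here. The quotient over blocks was 0.0880 (0.0832 to 0.0929) in pEGC and 0.0798 (0.0617 to 0.102) in pFF, and with each position counted once 0.293 and 0.133. Over deep segments pEGC had 28.5% in the lowest part, 31.6% in the second and 9.18% in the highest, a quotient of 0.322 (0.305 to 0.340), and the quotient was 0.358 (0.281 to 0.452) in pFF.

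Chromosome 9 leaned to the lower end in both libraries, more so in pFF. Its quotient was 0.330 (0.317 to 0.344) in pEGC and 0.217 (0.186 to 0.253) in pFF over blocks, 0.486 (0.464 to 0.510) and 0.282 (0.234 to 0.338) over deep segments, and 0.646 and 0.319 over blocks with each position counted once. Chromosome 17 leaned to the lower end as well, with 0.325 (0.314 to 0.335) in pEGC and 0.500 (0.372 to 0.667) in pFF over blocks, and 0.305 (0.293 to 0.318) and 0.548 (0.363 to 0.817) over deep segments. With each position counted once the values were 0.739 and 0.612, so which library leaned more changed with the count. Chromosome 13 leaned to the upper end over blocks, with 7.50 (7.11 to 7.90) in pEGC and 2.58 (1.80 to 3.76) in pFF, and here too the order of the libraries turned with each position counted once, to 2.04 and 2.58. Over its deep segments the quotient was 2.10 (2.01 to 2.20) in pEGC, and 0.735 (0.519 to 1.04) in pFF, whose interval includes 1. The largest part of these segments was the fourth in both libraries, with 37.6% and 25.8%.

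**Figure D4:**
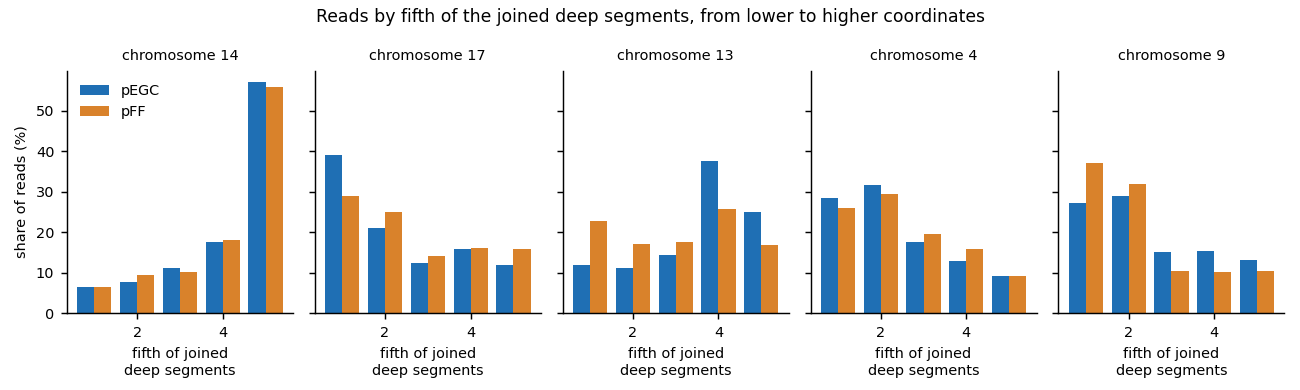
Share of the reads in the deep segments of a locus (vertical, percent) that falls in each of 5 equal parts of its joined deep segments, numbered from lower to higher coordinates (horizontal), in pEGC (blue) and pFF (orange). The bars rise at chromosome 14, to 57.0% and 55.8%, and are lowest at the upper end of chromosome 4 in both libraries, while at chromosomes 13 and 9 the 2 colours differ in height.

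The ratio of the libraries was also followed from part to part of each locus. At chromosome 4 the 7 deep segments had read ratios from 10.9 to 26.3, and the interval of each overlapped that of the rest of its locus. The long segment had a read ratio of 14.3 (13.3 to 15.4), and the rest had 13.9 (12.4 to 15.6). By distinct positions it had 2.37 (2.11 to 2.67) and the rest 5.49 (4.74 to 6.39). These 2 parts were thus alike in reads and apart in distinct positions. The long segment was the densest, with 15151 pEGC reads on 1384 positions and 830 pFF reads on 355. Counting each position once lowers the ratio more in dense stretches, and the part of depth in this gap was not tested. Of the 108 blocks of chromosome 4, 2 were lower in read ratio than the rest of the locus beyond counting error and 0 were higher. In 77 of the 108 blocks pFF had 0 reads. Such blocks cannot be called lower, and can be called higher only with many pEGC reads, so these counts say little about evenness. Where pFF had reads, the block ratios of chromosome 4 ran from 1.57 to 32.1. At chromosome 14 the read ratios of the 10 segments ran from 10.3 to 16.9, although the segments ranged from 7102 to 246241 pEGC reads per kb. The counts there are large, so small differences exceed counting error: 3 segments were lower than the rest and 2 higher. The last 2 segments lay on opposite sides, with 10.7 (10.3 to 11.1) at 11464767 and 14.6 (14.0 to 15.4) at 11466450. By distinct positions the 10 segments ran from 0.910 (0.739 to 1.12) at 11464767 to 3.46 (1.90 to 6.80) at 11454965. The widest segment, at 11460303, had 1.23 (1.08 to 1.40) by this count and the rest of the locus 2.69 (2.52 to 2.86), and pEGC filled 734 of its 810 possible positions.

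Of the 44 blocks of chromosome 14, 5 were lower and 3 higher in read ratio than the rest of the locus, and 7 had 0 pFF reads. The block from 11459336 to 11459672, with 937 pEGC and 142 pFF reads, had a ratio of 5.17 (4.33 to 6.22), against 12.5 (12.2 to 12.8) for the rest of the locus. Its neighbour from 11459707 to 11460040 had 8.88 (7.08 to 11.3), with 929 and 82 reads. Both blocks lie between the segments at 11459118 and 11460303, whose ratios were 10.3 (8.82 to 12.0) and 13.1 (12.4 to 13.9). By distinct positions neither block was lower than the rest, with 2.41 (1.81 to 3.25) against 2.35 (2.22 to 2.49) and 3.01 (2.16 to 4.28) against 2.33 (2.21 to 2.47).

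At chromosome 13 the ratio differed along the locus. The widest block, from 135958337 to 135960716, had 19955 pEGC reads and 248 pFF reads, a ratio of 63.1 (55.7 to 71.8), and the rest of the locus had 30.3 (25.7 to 36.0). Of the blocks below it, 4 were lower than the rest of the locus beyond counting error, among them those at 135954678 with 21.9 (14.2 to 35.6) and at 135956472 with 25.5 (18.2 to 36.7). The most extreme, from 135957163 to 135957219, rests on 12 and 2 reads, with a ratio of 4.70 (1.05 to 43.3). In 7 of the 18 blocks of the locus pFF had 0 reads, so these could not be called lower. By distinct positions the widest block had a ratio of 7.64 (6.52 to 8.99) and the rest 9.50 (7.77 to 11.7), so the order turned and the intervals overlapped. The order of the 2 parts thus changed when each position was counted once. Distinct positions run out in deep stretches, so this count lowers the ratio more where pEGC reads are denser. The widest deep segment, within that block, had 16823 pEGC reads on 1697 positions and 205 pFF reads on 140. The part of depth in the turned order was not tested, so it does not decide between the 2 orders.

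At chromosome 17 the order turned in the same way. Its first block, from 57338866 to 57339663, had a ratio of 102 (80.9 to 131) with 9371 and 72 reads, against 54.6 (48.9 to 61.2) for the rest. By distinct positions the values were 10.1 (7.43 to 14.2) and 15.7 (13.8 to 17.8), again in the other order. The first block was the densest of this locus in pEGC, so the limit given for chromosome 13 holds here too. Of the 79 blocks, 5 were lower in read ratio than the rest of the locus and 3 higher, while 31 had 0 pFF reads and could not be called lower. Of the 29 deep segments, 2 were lower and 3 higher. The lowest ratio of a block with pFF reads was 5.49. The block with the highest ratio, from 57346788 to 57347149, had 686 pEGC reads and 1 pFF read, a ratio of 538 with an interval of 96.2 to 21272.

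At chromosome 9 the order was the same by both counts. The dense first block had a ratio of 7.84 (7.32 to 8.40), and the rest of the locus had 12.9 (12.1 to 13.8). By distinct positions the ratios were 2.62 (2.34 to 2.94) and 5.13 (4.73 to 5.58), in the same order. Here too this count lowers the ratio more in the denser part. The block held 34.6% of the reads of the locus in pEGC and 46.6% in pFF. Within it, the segments from 123224541 to 123225035, with 5.81 (5.18 to 6.55), and from 123225090 to 123225585, with 8.02 (7.14 to 9.03), were the lower ones, while the segment before them had 10.3 (8.92 to 11.9). Of the 19 blocks, 1 other was lower than the rest of the locus, a short block from 123235428 to 123235562 with 231 pEGC and 48 pFF reads and a ratio of 3.77 (2.75 to 5.26). A further 5 blocks were higher than the rest of the locus, with ratios from 12.2 to 16.7. In 2 of the 19 blocks pFF had 0 reads.

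**Figure D5:**
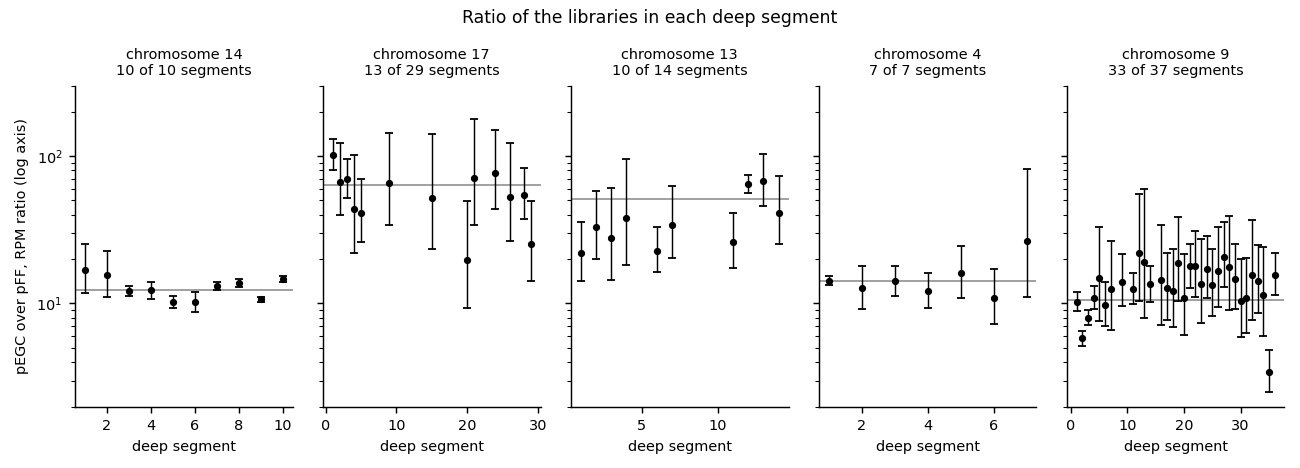
Ratio of pEGC over pFF in RPM (vertical, log axis) for each deep segment with at least 5 pFF reads, numbered from lower to higher coordinates (horizontal), with exact 95% counting intervals; the grey line is the ratio of the whole locus. By reads, segments follow the line closely at chromosomes 14 and 4, the early segments of chromosome 13 lie under it, and at chromosome 9 those at 123224541 and 123225090 and 1 near the upper end fall below it.

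The distribution of reads along each locus was also compared between the libraries. Over bins of 100 bases, the share of the profile common to both, with each library scaled to 100%, was 89.3% at chromosome 14, 85.7% at chromosome 4, 80.5% at chromosome 9, 69.9% at chromosome 13 and 66.3% at chromosome 17. The 2 lowest values belong to the loci with 394 pFF reads, and the part of depth in them was not tested. Spearman's rho between the libraries was 0.732 over 257 bins, 0.513 over 249, 0.808 over 146, 0.806 over 186 and 0.670 over 228, in the same order of loci. Of these bins, 244, 230, 144, 91 and 222 held reads. The value of chromosome 13 thus takes in many bins that were empty in both libraries. Bins of a locus share its library and its exons and are not independent, so these values are a description.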

How the data were processed

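The 2 libraries were analysed from the authors' deposited files, which list 1 aligned read per line by chromosome, start, end and strand, with no header and with repeated lines kept. Per the labels' protocols, RNA was selected for poly(A) in 2 rounds, fragmented and copied from random hexamers, with no step described that keeps strand. Which aligner and assembly were used, and how reads with more than 1 match were handled, is not given in the sources used here. Members and lists were chosen with earlier results of these data known.

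Reads were assigned to a locus by their start. Ratios are of RPM, with exact Clopper-Pearson 95% intervals; the reads carry no molecular identifiers and may repeat a molecule, so the intervals cover counting error only. A count of 0 was set to a floor of 3 reads. Blocks needed at least 3 reads of coverage and were joined over gaps of up to 10 bases. Regions join starts within 200 bases and hold at least 20 pooled reads. Described blocks were the lowest, highest, widest and densest, and those whose interval lay apart from the rest of the locus; other deep segments were chosen after their values were seen. Distinct positions at equal reads are exact expectations. No test of the conditions was possible with 1 library per group. Block finding and intervals were tested on simulated loci with a few separate, evenly covered blocks. Deep segments, near-continuous coverage and pile-ups at single positions were not simulated. Analysis used Python 3.11.15, numpy 2.4.6, scipy 1.17.1, pandas 2.3.3 and matplotlib 3.10.9.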

Additional observations from a re-analysis of the deposited data

How the results depend on the processing

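No paired analysis was possible because each group has 1 library. The pEGC over pFF ratio of each of the 5 whole loci stayed above 1 under every alternative run. Single segments and blocks were recounted by distinct positions only, and the chromosome 14 segment at 11464767 then had 0.910 (0.739 to 1.12). The values below are given for chromosomes 14, 17, 13, 4 and 9 in this order unless chromosomes are named. With all reads in the total the ratios were 15.8, 80.7, 65.0, 18.1 and 13.5. Scaled by TMM, a trimmed mean of log ratios over regions that shifts all log2 ratios by 0.38, they were 9.49, 48.5, 39.0, 10.9 and 8.09. With distinct positions they were 2.35, 14.9, 8.34, 3.49 and 4.23, and with at most 5 reads per position 3.12, 28.7, 17.7, 5.47 and 6.56. Without the block with most reads they were 13.1, 54.6 and 30.3 at chromosomes 14, 17 and 13 and 12.9 at chromosome 9. Of the alternatives chosen after seeing the data, leaving out the 10 deepest positions gave 11.9 at chromosome 14 and 45.8 at chromosome 13, and counting reads in deep segments only gave 73.5 at chromosome 17. Limits moved out by 5 kb and reads in blocks only stayed within the counting interval at all 5 loci.

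The number of blocks depended on the coverage limit. At 5% of the mean it was 79, 51 and 12 at chromosomes 14, 17 and 9, at 25% it was 19, 30 and 43 at chromosomes 14, 4 and 9, and from distinct positions it was 95, 71 and 12 at chromosomes 14, 4 and 9. Deep segments numbered 10, 29, 7 and 37 at chromosomes 14, 17, 4 and 9. The pEGC share outside blocks was 0.837%, 0.0943%, 0.164% and 0.161% at the 5% limit (chromosomes 14, 17, 13 and 9). At the 25% limit it was 3.38%, 2.70%, 1.37%, 4.85% and 1.07%, by distinct positions 28.1%, 0.766%, 2.71%, 7.74% and 0.784%, and outside deep segments 5.51%, 21.0%, 3.68%, 8.06% and 20.4%.

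The end quotient in pEGC over blocks was 1.62, 0.325, 7.50, 0.0880 and 0.330. With 4 equal parts it was 1.55, 0.389, 0.0937 and 0.351 at chromosomes 14, 17, 4 and 9. With 10 equal parts it was 0.0695, 0.242, 3.66, 0.0702 and 0.165, so chromosome 14 turned. With distinct positions it was 0.479, 0.739, 2.04, 0.293 and 0.646, so chromosome 14 turned again, and over deep segments 8.81, 0.305, 2.10, 0.322 and 0.486. In pFF the quotient turned at chromosome 14 with 10 parts (0.0357) and with distinct positions (0.319), and at chromosome 13 over deep segments (0.735). The cause was not tested. By reads per kb of blocks, by distinct positions and by reads per kb of deep segments, 1, 2 and 2 of the 5 loci kept their place in the pEGC order, and in the pFF order, with equal levels sharing their places, 3 did by reads per kb of deep segments and all 5 by the other 2 measures.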
